A study of Mus musculus with 28 samples.

Results

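The inflammatory genes examined here are 36 listed cytokine, chemokine, prostaglandin and acute-phase genes, taken by gene symbol from the annotation of the array's probe sets. Where several probe sets name a gene, that of highest mean over the arrays was used. Of the 36 members, 33 had a named probe set and 27 had enough signal to be tested, among 12211 genes tested of 19938 named. The arrays measured total RNA of mouse embryonic fibroblasts (MEFs) that had been given transcription factors to turn them into induced cardiomyocyte-like cells. Expression was compared between factor combinations at day 21, when reprogrammed cells had been under zeocin, an antibiotic, at 300 μg/mL for 7 days. The transduced groups also shared a lentivirus for rtTA (a doxycycline-dependent activator), a lentiviral reporter in which a Troponin T promoter drives a calcium indicator and zeocin resistance, and 2 μg/mL doxycycline in the medium from day 0. Selection therefore kept cells with an active Troponin T reporter.

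HNGMT cells received Hand2, NKX2.5, GATA4, MEF2C and TBX5 (3 arrays). HGMT cells received Hand2, GATA4, MEF2C and TBX5 (3 arrays), and NGMT cells received NKX2.5, GATA4, MEF2C and TBX5 (6 arrays). DMNT cells received MYOCD, MEF2C, NKX2.5 and TBX5 (4 arrays), and DMT cells received MYOCD, MEF2C and TBX5 (4 arrays). GMT cells received GATA4, MEF2C and TBX5 (5 arrays). The 0F MEFs received no factor and, per the labels' protocols, were not transduced but were cultured to the same day (3 arrays). A source label describes the 0F samples as selected cells like all others, so the titles and the treatment label were followed. The labels call the samples independent biological replicates, and the p-values measure only the spread between these samples. For each gene this spread is estimated over all 28 arrays together.

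The 28 arrays fell into 3 sets with different value distributions, and each comparison of factor combinations was made within a set. Only the comparison of set 2 with set 1 in GMT and NGMT cells crosses sets, and their scales differ. Set 1 held NGMT replicates 1 to 3, GMT replicates 1 and 2 and all 0F arrays, with array medians of 6.68 to 6.75 log2 signal. Set 2 held HNGMT, HGMT, NGMT replicates 4 to 6, DMT replicates 1 to 3 and GMT replicates 3 to 5, with medians of 6.86 to 6.95. Set 3 held DMNT and DMT replicate 4, with medians of 7.64 to 7.65. All 0F arrays were in set 1, so HNGMT, HGMT, DMT and DMNT cells could not be set against 0F MEFs within a set. All 10 fibroblast markers lay above the array median on every array. Against 0F cells, 2 of them were higher and 5 lower in NGMT cells, and 2 higher and 8 lower in GMT cells, with list means of 11.51 to 11.84 log2 signal on NGMT and 11.31 to 11.48 on GMT arrays, against 12.23 to 12.26 on 0F arrays. Their part in the results below was not tested. Of the cardiomyocyte markers, 7 of 8 tested were higher in GMT than in 0F cells, led by Tnnt2 (log2 difference 5.12 ± 0.09, SE, limma adjusted p = 2.49e-22). The values are bulk signals, in which fewer cells of a type and less RNA per cell cannot be told apart.

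Fibroblasts answer infection, injury and cytokines by secreting chemokines, which draw leukocytes into tissue, and cytokines of the IL-6 and IL-1 families. Many of these genes are direct targets of the transcription factor NF-kB, which is held in the cytoplasm by inhibitors such as the product of Nfkbia, and acute-phase genes are further driven by C/EBP factors and STAT3. Prostaglandins made through Ptgs2, the inducible cyclooxygenase, act alongside these proteins in inflamed tissue.

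The promoters shown are those of the 4 members that rank first when the called differences of GMT from 0F cells and of HGMT from GMT cells are ordered together by size. All 4 were placed by the comparison of GMT with 0F cells, where Il33 ranked below them. Each line gives the 250 bases before the RefSeq start site, 5′ to 3′ on the gene's strand, from RefSeq on GRCm38.p6. Capitals mark matches on either strand to 5 patterns: the NF-kB motif, the C/EBP-type pattern TTNNGNAA, the AP-1-type pattern TGANTCA, the CRE-type pattern TGACGT and the TATA-type pattern TATAAA.
Saa3 (chr7:46715677-46715926, minus strand): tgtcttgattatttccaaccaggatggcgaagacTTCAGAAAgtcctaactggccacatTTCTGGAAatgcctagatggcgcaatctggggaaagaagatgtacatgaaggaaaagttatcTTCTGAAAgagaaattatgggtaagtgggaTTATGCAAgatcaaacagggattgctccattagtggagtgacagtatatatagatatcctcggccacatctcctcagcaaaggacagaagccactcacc
Ptgs2 (chr1:150099781-150100030, plus strand): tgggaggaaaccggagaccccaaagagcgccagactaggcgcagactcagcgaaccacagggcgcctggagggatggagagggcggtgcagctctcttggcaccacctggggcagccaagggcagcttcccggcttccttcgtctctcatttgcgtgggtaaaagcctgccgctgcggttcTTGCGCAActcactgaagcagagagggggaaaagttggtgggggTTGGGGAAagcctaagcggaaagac
Il6 (chr5:30012864-30013113, plus strand): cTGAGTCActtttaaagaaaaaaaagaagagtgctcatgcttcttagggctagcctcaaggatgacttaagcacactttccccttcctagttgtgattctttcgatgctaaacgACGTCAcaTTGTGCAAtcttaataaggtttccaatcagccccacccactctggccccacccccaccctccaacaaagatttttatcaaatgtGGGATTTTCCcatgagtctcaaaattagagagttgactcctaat
Ccl8 (chr11:82114935-82115184, plus strand): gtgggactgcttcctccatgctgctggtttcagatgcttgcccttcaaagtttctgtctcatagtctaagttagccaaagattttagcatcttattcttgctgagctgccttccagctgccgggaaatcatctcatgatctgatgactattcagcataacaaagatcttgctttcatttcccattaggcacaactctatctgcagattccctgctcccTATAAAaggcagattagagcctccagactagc
No printed match overlaps a match to another pattern. The Saa3 promoter holds 4 TTNNGNAA matches and none to the other patterns. The Ptgs2 promoter holds 2 TTNNGNAA matches, of which TTGCGCAA reads the same on both strands. In the Il6 promoter the NF-kB match GGGATTTTCC lies at -44 to -35 from the start site, with 1 match each to TTNNGNAA, TGANTCA and TGACGT further upstream. The Ccl8 promoter holds only a TATAAA match, at -32 to -27. RefSeq promoters were found for 28 of the 36 members. The NF-kB motif was present in 28.6% of the 35 promoters of members and in 7.25% of all 32851 promoters. TTNNGNAA was present in 21 of the 35, against 36.8% of all, TGANTCA in 20.0% against 6.75%, TGACGT in 11.4% against 6.47% and TATAAA in 28.6% against 12.4%. These are matches of letters and no binding was measured.

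Most inflammatory genes were higher in NGMT and GMT cells than in 0F MEFs. The 0F MEFs were not transduced, and no doxycycline or zeocin is given for them. Factors, lentiviruses, doxycycline and selection therefore cannot be told apart in any comparison with 0F. The largest differences in signal were at Saa3, Ptgs2 and Il6. These 3 genes, Lif, Ccl8 and Il11 lay below the array median on all 3 arrays of 0F MEFs. No detection call was used here, so their 0F signals may be background, their differences may be lower bounds on the change in RNA, and no order among them is read. They passed the filter through transduced arrays only. Their calls as higher than 0F, below and in the counts of members, carry this limit. In limma, 21 of the 27 tested members were higher and 3 lower in NGMT than in 0F cells at an adjusted p under 0.05, where 58.2% of all tested genes were called, 34.9% as higher and 23.3% as lower. In GMT against 0F cells 18 members were higher and 4 lower, where 56.5% of all tested genes were called, 34.2% as higher and 22.3% as lower. Called and higher by at least 1 log2 unit were 16 members in GMT cells, against 6.08% of all tested genes. The median log2 difference of the members was 1.36 for NGMT and 1.41 for GMT, while over all tested genes it was 0.04 and 0.05. Both comparisons use the same 3 arrays of 0F MEFs.

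Among the acute-phase proteins, all 3 were higher in reprogrammed cells. Saa3, a serum amyloid A made mainly outside the liver, had log2 signals of 11.50, 11.71 and 12.13 in NGMT cells and 12.36 and 12.48 in GMT cells, against 6.22, 6.11 and 5.99 in 0F MEFs. The groups did not overlap, and the log2 differences from 0F were 5.68 ± 0.27 for NGMT and 6.31 ± 0.30 for GMT (SE; adjusted p = 7.99e-15 and 1.04e-14). Lcn2, a siderophore-binding lipocalin, had log2 signals of 12.74, 12.74 and 12.92 in NGMT cells and 13.03 and 13.01 in GMT cells, against 9.46, 10.07 and 10.05 in 0F MEFs. It was already well expressed in 0F MEFs and rose by 2.94 ± 0.27 and 3.16 ± 0.31 on the log2 scale (adjusted p = 2.01e-09 and 4.25e-09). Hp, which encodes the haemoglobin-binding haptoglobin, had log2 signals of 12.03, 12.31 and 12.06 in NGMT cells and 12.06 and 12.17 in GMT cells, against 10.60, 10.74 and 10.96 in 0F MEFs. Its log2 differences were smaller, 1.36 ± 0.25 and 1.35 ± 0.28 (adjusted p = 5.91e-05 and 0.000247), and all its NGMT and GMT arrays lay above those of 0F. Hp is also expressed in adipocytes, and the 9 tested adipocyte markers were all lower in both groups than in 0F MEFs.

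The IL-6 family showed 2 strong rises. Il6, the cytokine that drives the acute-phase response through gp130 and STAT3, had log2 signals of 9.25, 9.33 and 9.95 in NGMT cells and 10.40 and 10.47 in GMT cells, against 4.80, 4.75 and 4.81 in 0F MEFs. The log2 differences were 4.72 ± 0.24 and 5.65 ± 0.27 (adjusted p = 3.14e-14 and 1.05e-14), and GMT arrays lay above NGMT arrays, which lay above 0F arrays. Lif, which signals through the same receptor subunit, had log2 signals of 8.71, 8.82 and 8.76 in NGMT cells and 8.91 and 9.12 in GMT cells, against 5.95, 6.03 and 6.15 in 0F MEFs. Its replicates were tight, with log2 differences of 2.72 ± 0.09 and 2.97 ± 0.10 (adjusted p = 6.73e-18 and 1.25e-17). Il11, another gp130 cytokine, and Il15, a growth factor for natural killer and memory T cells, were called in NGMT against 0F cells, with log2 differences of 0.28 ± 0.08 and 0.32 ± 0.12 (adjusted p = 0.00563 and 0.0238). In GMT against 0F cells, where neither was called, their log2 differences were 0.20 and 0.26, with 95% intervals of 0.01 to 0.40 and -0.01 to 0.53. Il11 lay below the array median on every array of set 1, so its signals in all these groups may be background.

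In the IL-1 family, Il33 rose, Il18 fell, and Il1rn differed between the reprogrammed groups. Il33, an alarmin stored in stromal and epithelial nuclei, had log2 signals of 10.92, 10.91 and 11.11 in NGMT cells and 11.37 and 11.48 in GMT cells, against 7.70, 7.75 and 7.83 in 0F MEFs. The log2 differences were 3.22 ± 0.10 and 3.67 ± 0.11 (adjusted p = 2.23e-18 and 2.11e-18). Il1rn, the secreted antagonist of the IL-1 receptor, had log2 signals of 10.48, 11.19 and 9.82 in NGMT cells and 9.15 and 9.54 in GMT cells, against 8.81, 9.06 and 8.88 in 0F MEFs. It was called in NGMT cells (log2 difference 1.58 ± 0.27, adjusted p = 2.58e-05) and not in GMT cells (0.43, 95% interval -0.21 to 1.06, adjusted p = 0.25). Il18, an inflammasome-processed cytokine that macrophages also make, fell by 0.28 in NGMT and by 0.64 in GMT on the log2 scale (adjusted p = 0.0355 and 0.000127). On both GMT arrays Il18 lay below the array median. Il1a did not reach the filter, being above the array median on 2 arrays, both of GMT. Its log2 signals were 5.80, 6.15 and 6.63 in NGMT cells and 7.49 and 8.23 in GMT cells, against 4.71, 4.70 and 4.76 in 0F MEFs, so the groups did not overlap. In a limma fit without the filter Il1a had log2 differences of 1.47 ± 0.14 and 3.13 ± 0.16.

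The CC chemokines rose with exceptions at the gene that attracts eosinophils and at a macrophage product. Ccl2, Ccl7 and Ccl8 encode monocyte attractants and are neighbours on chromosome 11 with Ccl11 and Ccl12. Ccl2 had log2 signals of 11.03, 10.97 and 11.40 in NGMT cells and 11.37 and 11.44 in GMT cells, against 7.41, 7.44 and 7.74 in 0F MEFs. Ccl7 had log2 signals of 11.91, 11.88 and 11.98 in NGMT cells and 12.07 and 12.05 in GMT cells, against 9.22, 9.09 and 9.23 in 0F MEFs. Ccl8, whose promoter above has the TATAAA match alone, had log2 signals of 8.69, 8.64 and 8.77 in NGMT cells and 9.37 and 9.55 in GMT cells, against 5.47, 5.39 and 5.67 in 0F MEFs. For all 3, every NGMT and GMT array lay above every 0F array, with log2 differences from 0F of 3.61 ± 0.23, 2.74 ± 0.15 and 3.19 ± 0.37 in NGMT cells and 3.88 ± 0.25, 2.88 ± 0.17 and 3.95 ± 0.41 in GMT cells (the largest adjusted p was 7.12e-08). Ccl20, the ligand of Ccr6, had log2 signals of 7.70, 7.67 and 8.42 in NGMT cells and 8.06 and 8.64 in GMT cells, against 6.81, 6.71 and 6.63 in 0F MEFs (log2 differences 1.21 ± 0.14 and 1.63 ± 0.16). Probe sets of such near copies can share sequence, and cross-hybridization between them was not tested. Ccl20 lay above the array median on 6 arrays, namely every NGMT and GMT array of set 1 and 0F replicate 1. It thus passed the filter through the groups in which it was called higher, a limit on these calls and on the counts of members.

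Ccl11, or eotaxin, lies between Ccl7 and Ccl12 on the chromosome and did not move with them. Its log2 signals were 9.15, 8.29 and 8.62 in NGMT cells and 6.72 and 7.27 in GMT cells, against 9.02, 9.0 and 9.08 in 0F MEFs. GMT cells were lower than 0F MEFs by a log2 difference of -2.04 ± 0.23 (adjusted p = 3.84e-08), whereas NGMT arrays overlapped those of 0F (-0.35, 95% interval -0.76 to 0.07, adjusted p = 0.15). Ccl9, a Ccr1 ligand made by macrophages, had log2 signals of 6.72, 6.63 and 6.50 in NGMT cells and 6.45 and 6.14 in GMT cells, against 8.23, 7.89 and 8.48 in 0F MEFs. It was lower without overlap, by log2 differences of -1.58 ± 0.21 and -1.90 ± 0.23 (adjusted p = 4.46e-07 and 1.52e-07). On every NGMT and GMT array of set 1 Ccl9 lay below the array median, so its signals there may be background. Macrophage markers were lower in the same comparisons: 11 of 12 tested were lower in each, led in GMT by Lyz2 (log2 difference -6.45 ± 0.61, adjusted p = 3.11e-09), and the list averaged 5.95 to 6.02 log2 signal in NGMT and 6.00 to 6.05 in GMT arrays, against 7.81 to 8.37 in 0F arrays. The part of macrophage RNA in the lower Ccl9 and Il18 was not tested.

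Of the CXC chemokines, Cxcl1, Cxcl5 and Cxcl14 rose and Cxcl15 fell in both groups. Cxcl1, a neutrophil attractant acting through Cxcr2, had log2 signals of 10.64, 10.52 and 10.81 in NGMT cells and 10.86 and 10.96 in GMT cells, against 7.77, 7.84 and 8.02 in 0F MEFs. Cxcl5, a ligand of the same receptor, had log2 signals of 11.16, 10.95 and 11.21 in NGMT cells and 10.81 and 10.65 in GMT cells, against 8.12, 7.92 and 7.94 in 0F MEFs. The log2 differences of Cxcl1 were 2.78 ± 0.17 and 3.03 ± 0.19 and those of Cxcl5 3.11 ± 0.25 and 2.74 ± 0.28 (adjusted p at most 1.09e-08). Cxcl14, a chemokine expressed in epithelia and stroma, had log2 signals of 11.82, 11.97 and 11.51 in NGMT cells and 11.27 and 11.27 in GMT cells, against 9.44, 9.25 and 9.33 in 0F MEFs. It rose by 2.43 ± 0.12 and 1.93 ± 0.13 on the log2 scale. Cxcl15, or lungkine, sits beside Cxcl1 on chromosome 5 and had log2 signals of 6.85, 6.47 and 6.26 in NGMT cells and 5.85 and 5.70 in GMT cells, against 7.34, 6.87 and 7.37 in 0F MEFs. It was lower by log2 differences of -0.66 ± 0.22 and -1.42 ± 0.25 (adjusted p = 0.0136 and 3.31e-05). Both GMT arrays lay below the lowest array median of set 1, 6.68, for Cxcl15, so its signal there may be background. Cxcl16, the ligand of Cxcr6, was called in GMT cells (log2 difference 0.83 ± 0.10, adjusted p = 2.15e-07) and not in NGMT cells (0.01, 95% interval -0.18 to 0.20, adjusted p = 0.91). Cxcl12, the stromal ligand of Cxcr4, had a log2 difference of 0.30 ± 0.12 in NGMT cells (adjusted p = 0.0316) and of 0.15 in GMT cells, where it was not called (95% interval -0.12 to 0.42, adjusted p = 0.34).

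Ptgs2 rose with little spread between arrays. Its log2 signals were 11.97, 12.08 and 12.07 in NGMT cells and 12.11 and 12.20 in GMT cells, against 5.93, 5.87 and 5.95 in 0F MEFs. The log2 differences were 6.12 ± 0.06 and 6.24 ± 0.07 (adjusted p = 3.14e-27 and 3.24e-26). Ptges, the inducible prostaglandin E synthase downstream of it, was above the array median in all groups and differed by 0.27 ± 0.05 and 0.16 ± 0.06 on the log2 scale (adjusted p = 0.000129 and 0.0267). Both NF-kB feedback inhibitors were higher. Nfkbia had log2 signals of 9.65, 9.75 and 9.93 in NGMT cells and 10.13 and 10.28 in GMT cells, against 8.78, 8.78 and 8.84 in 0F MEFs. Tnfaip3, a ubiquitin-editing enzyme, had log2 signals of 7.50, 7.51 and 7.61 in NGMT cells and 7.89 and 8.0 in GMT cells, against 6.73, 6.92 and 6.68 in 0F MEFs. The log2 differences were 0.98 ± 0.07 and 1.41 ± 0.08 for Nfkbia and 0.76 ± 0.07 and 1.17 ± 0.08 for Tnfaip3 (adjusted p at most 9.05e-10).

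Csf1, the macrophage growth factor, was above the array median on every array and was not called (log2 difference 0.17, 95% interval 0.01 to 0.34, in NGMT and -0.01, -0.20 to 0.18, in GMT). Il1b, Tnf, Csf2, Csf3 and Cxcl2 stayed below the filter, Il1b between 5.12 and 5.36 and Tnf between 5.24 and 5.61 log2 signal on every array of set 1. Csf2 (4.75 to 4.86) and Csf3 (5.66 to 5.87) also varied little there. Cxcl2 was at 5.34, 5.34 and 5.46 in NGMT cells and 5.50 and 5.47 in GMT cells, against 4.85, 5.12 and 5.0 in 0F MEFs, all below the array medians. In the fit without the filter Cxcl2 was called against 0F, with log2 differences of 0.39 ± 0.12 in NGMT and 0.50 ± 0.14 in GMT cells (adjusted p = 0.0133 and 0.00559), and Tnf was lower in NGMT cells (-0.21 ± 0.05, adjusted p = 0.00175). Il1b, Csf2 and Csf3 were not called there against 0F. No named probe set was found for Il1r1, Il1rl1 or Ptgs1, which are not analysed here. The plot of differences from 0F shows the 27 tested members in order.

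**Figure D1:**
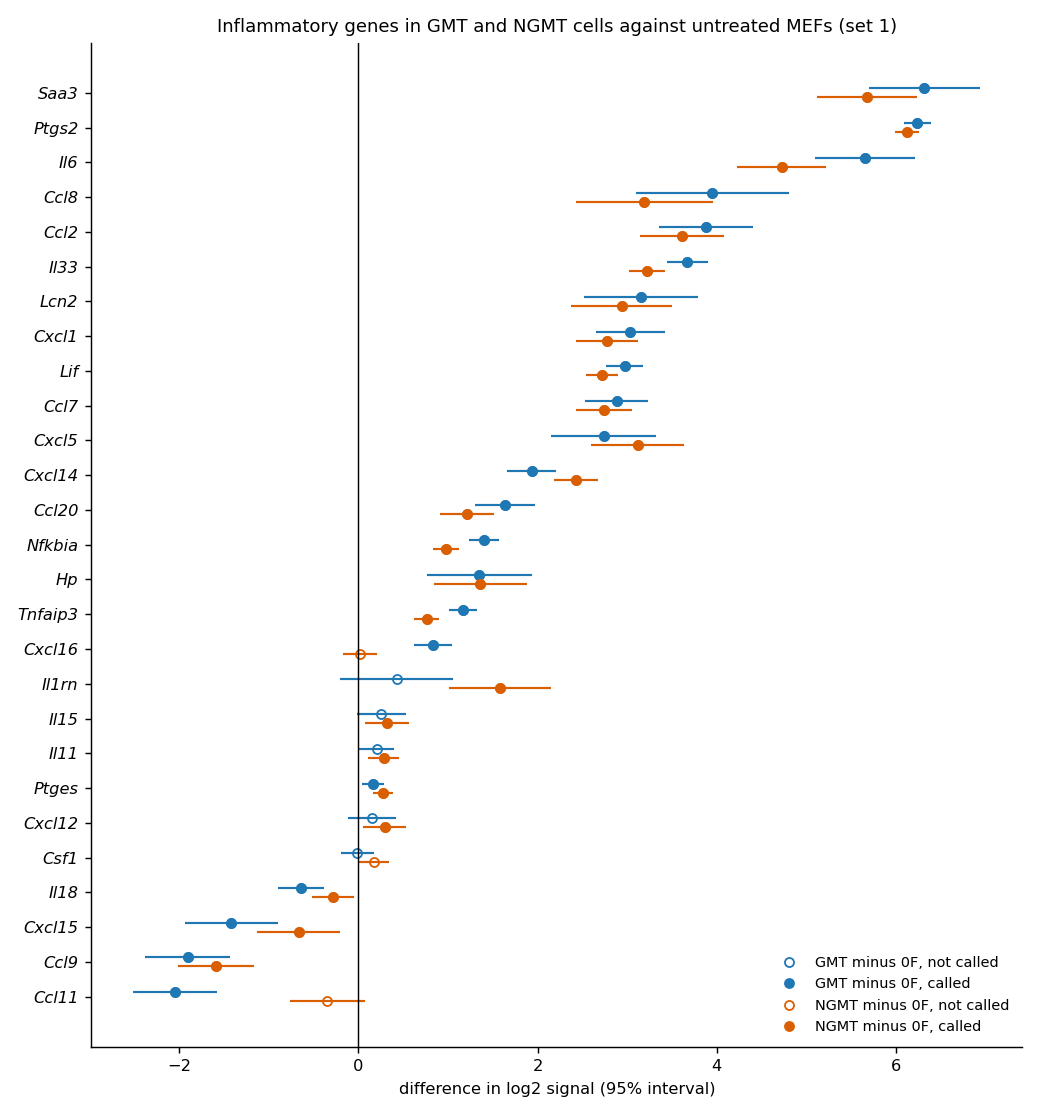
Differences in log2 signal of 27 tested inflammatory genes from 0F MEFs in set 1, for GMT (2 arrays, blue) and NGMT (3 arrays, orange) against 0F (3 arrays). Points are limma estimates, bars are 95% intervals and filled points have an adjusted p under 0.05; Saa3, Ptgs2 and Il6 lie at the top, from 4.72 to 6.31 log2 units, and Ccl9 and Ccl11 at the bottom, with Ccl11 filled for GMT and open for NGMT.

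The rest of the inflammatory pathway was read from lists of genes outside the members, beside the 34.2% of all tested genes called higher and the 22.3% called lower in GMT against 0F cells. Of 24 tested genes of NF-kB signalling, 19 were higher and 1 lower in GMT than in 0F cells, led by Nfkbiz, an atypical IkB protein needed for Il6 transcription (log2 difference 3.03 ± 0.09), and Bcl3 (2.03 ± 0.09). Of 13 genes of IL-6 family signalling, 8 were higher and 2 lower, led by Socs3, the feedback inhibitor of gp130 (2.47 ± 0.13), and Cebpd (2.20 ± 0.12). Of 16 further prostaglandin genes, 5 were higher and 7 lower. The higher ones included Pla2g4a, which releases arachidonic acid (2.63 ± 0.08), and Slco2a1, a prostaglandin carrier (3.03 ± 0.10). Other chemokines did not rise as a group: 2 of 12 were higher and 4 lower, with Ccl3 at -2.53 ± 0.40 and Cxcl9 at -2.27 ± 0.14. No chemokine receptor was higher and 3 of 5 were lower. Further acute-phase genes gave 6 higher and 2 lower of 9, and the lower ones, Orm1 (-4.81 ± 0.24) and Lbp (-2.83 ± 0.17), are also expressed in adipocytes. Of 11 genes of IL-1 family signalling 5 were higher and 1 was lower, namely Casp1 (-1.54 ± 0.17), which in all is near the 56.5% of all tested genes called. Of 12 further cytokines and receptors 6 were higher and 3 lower, led by Tslp (3.48 ± 0.23). The named genes have adjusted p of at most 7.57e-06.

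Mesothelial markers were also mostly higher in these comparisons with 0F. Of 10 tested, 9 were higher in GMT than in 0F cells and none lower, with Upk1b at a log2 difference of 6.01 ± 0.12 (adjusted p = 1.19e-21) and Msln at 5.04 ± 0.12 (adjusted p = 2.42e-20). The list averaged 9.01 to 9.11 log2 signal on NGMT and 8.71 to 8.80 on GMT arrays, against 6.08 to 6.21 on 0F arrays. Their part in the inflammatory genes was not tested. Granulocyte and mast cell markers and lymphocyte markers were below the filter, with none above the array median on all arrays of any group. The plot of marker lists shows these levels on each array.

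**Figure D2:**
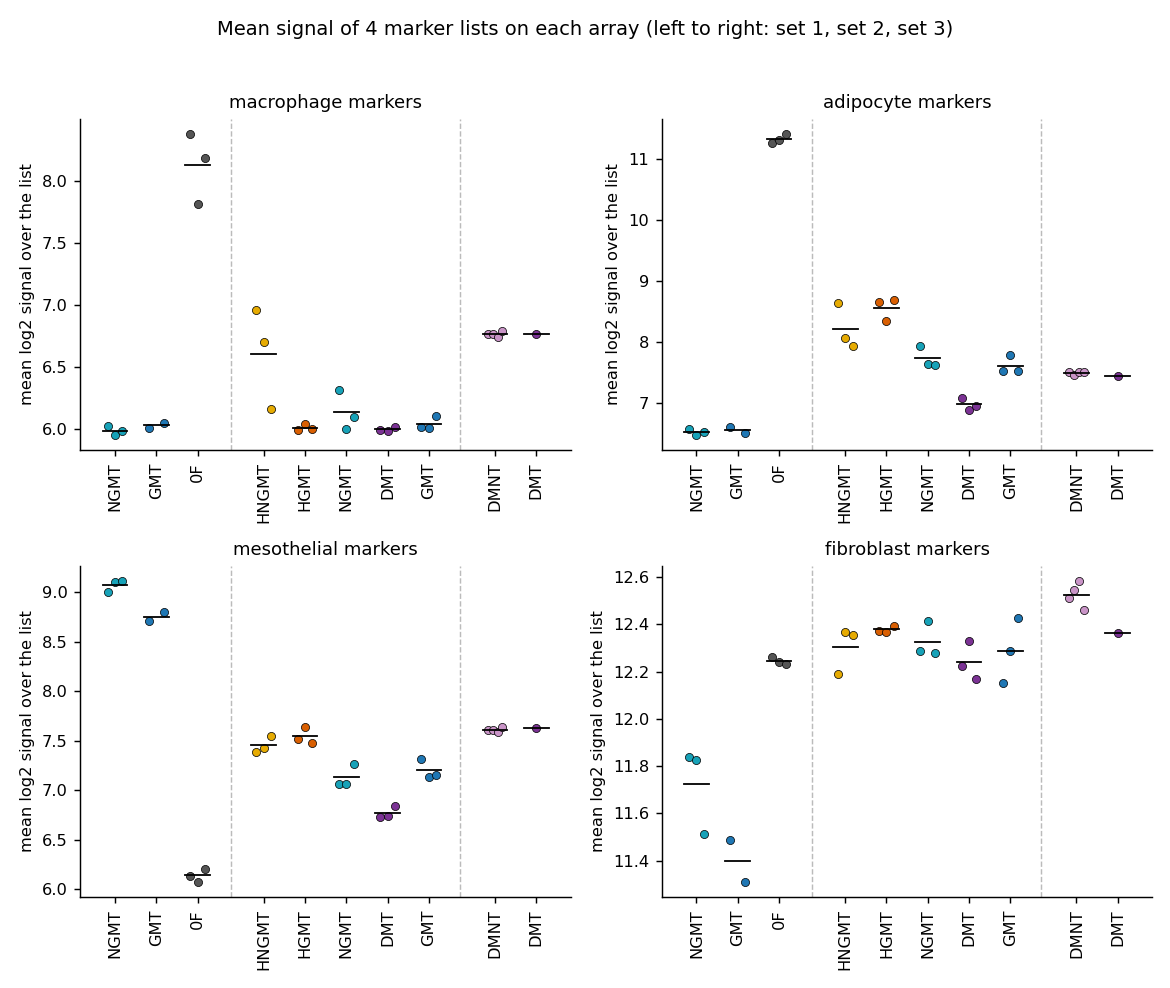
Mean log2 signal of 4 marker lists on each array, with groups from left to right within sets 1, 2 and 3 parted by dashed lines; points are arrays and lines are group means. Macrophage and adipocyte markers are highest in 0F MEFs of set 1, mesothelial markers are lowest there, and in set 2 the HNGMT arrays reach macrophage means of 6.95 and 6.70.

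Adding NKX2.5 to GMT changed 8 of the 27 tested members in set 1 and none was called in set 2. In set 1, 3 members were higher and 5 lower in NGMT than in GMT cells, 29.6% of the tested members, where 4.7% of all tested genes were called, 2.31% as higher and 2.39% as lower. Ccl11 was higher by a log2 difference of 1.70 ± 0.23 (adjusted p = 4.45e-05) and Il1rn by 1.15 ± 0.31 (adjusted p = 0.0279), with the signals given above. Cxcl14 was higher by 0.49 ± 0.13 (adjusted p = 0.0315). Lower were Il6 (-0.93 ± 0.27, adjusted p = 0.0473), Cxcl16 (-0.82 ± 0.10, adjusted p = 2e-05), Il33 (-0.45 ± 0.11, adjusted p = 0.0163), Nfkbia (-0.43 ± 0.08, adjusted p = 0.00168) and Tnfaip3 (-0.41 ± 0.08, adjusted p = 0.00154). The call of Il1rn was lost when GMT replicate 1 or 2 or NGMT replicate 1 or 2 was left out, with the smallest adjusted p at 0.079 and the largest at 0.25. A limma fit of the compared sets alone did not call Il1rn either (adjusted p = 0.069). Il1a, in the fit without the filter, was lower by -1.67 ± 0.16, and in set 2 it lay between 4.78 and 5.10 log2 signal on every array. The set 1 comparison rests on 2 GMT arrays, and its count was 2 members without GMT replicate 2, 4 without NGMT replicate 1 or 2, 5 without GMT replicate 1, 1 with additive group and set terms and 13 in a fit of the compared sets alone.

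In set 2 no member was called between NGMT and GMT cells, where 0.0328% of all tested genes were called, and 1 member, Cxcl16, had an unadjusted p under 0.05. Ccl11 had log2 signals of 7.70, 7.71 and 7.82 in NGMT cells, against 7.92, 8.16 and 7.45 in GMT cells. The groups overlapped, and the log2 difference was -0.10 (95% interval -0.52 to 0.32). Cxcl16 had log2 signals of 7.58, 7.73 and 8.06 in NGMT cells against 8.40 and 8.81 in GMT cells in set 1, and of 7.74, 7.68 and 7.76 in NGMT cells against 7.49, 7.48 and 7.57 in GMT cells in set 2. NGMT arrays were thus the lower ones in set 1 and the higher ones in set 2. A test of the difference between the sets called 2 members, Ccl11 (1.79 ± 0.30, set 1 minus set 2 on the log2 scale, adjusted p = 0.004) and Cxcl16 (-1.03 ± 0.14, adjusted p = 0.000196), where 0.639% of all tested genes were called, 0.27% with a positive and 0.369% with a negative sign. For Il6 (-0.71, 95% interval -1.46 to 0.03) and Il1rn (1.05, 0.20 to 1.90) the adjusted p were 0.76 and 0.46, so a difference between sets was not shown. The plot of NGMT minus GMT sets both sets side by side.

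**Figure D3:**
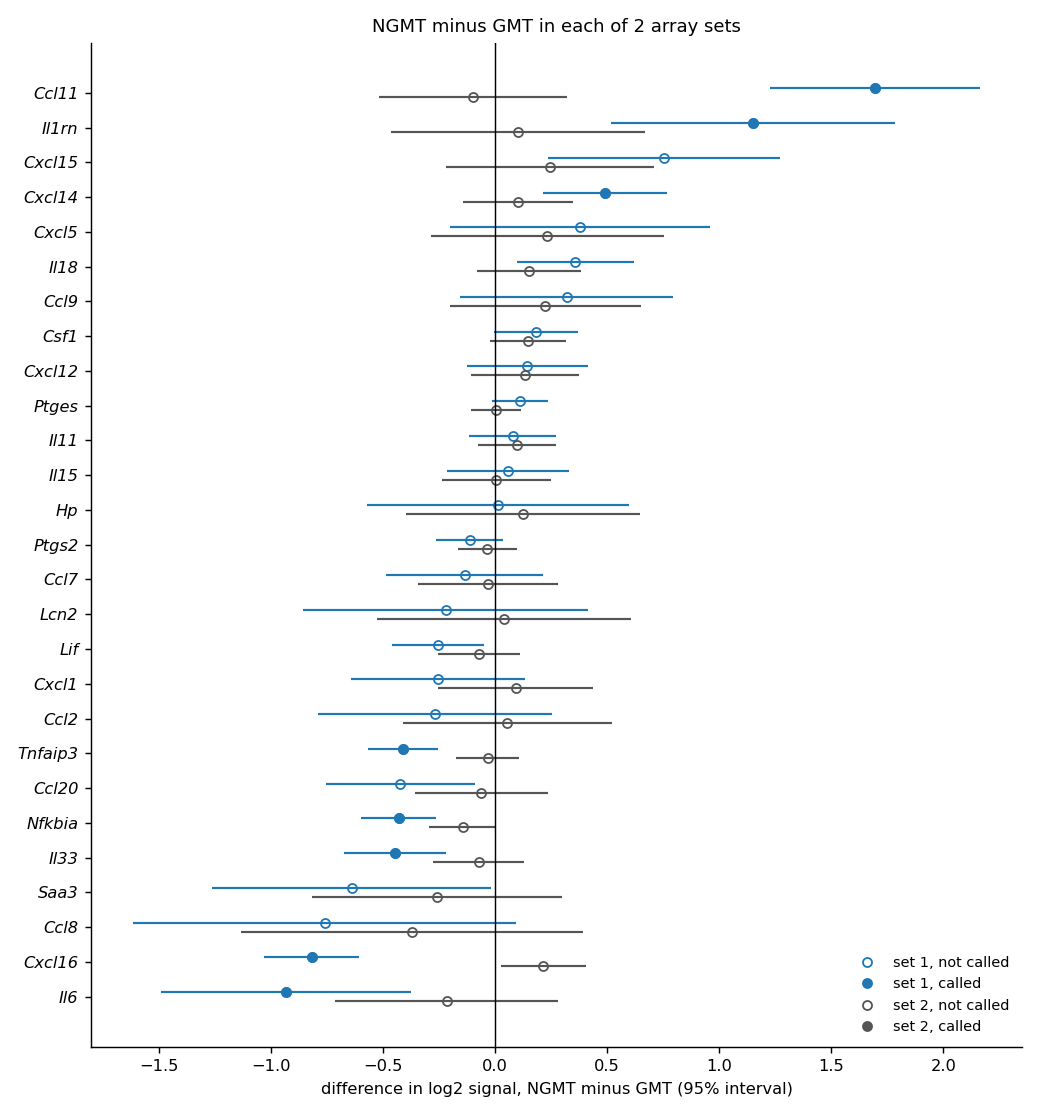
Differences in log2 signal between NGMT and GMT cells for 27 tested inflammatory genes, in set 1 (3 against 2 arrays, blue) and set 2 (3 against 3 arrays, grey). Points are limma estimates, bars are 95% intervals and filled points have an adjusted p under 0.05; 8 members are filled in set 1 and none in set 2, and Ccl11 and Cxcl16 are the members whose differences were called as unequal between the sets.

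GMT and NGMT cells were measured in both sets, and their inflammatory genes had different levels there. Over these groups 15 members were lower and 7 higher in set 2 than in set 1, where 74.4% of all tested genes were called, 53.8% as higher and 20.6% as lower, and the median of all tested genes was shifted by 0.15 log2 units. Saa3 was at 8.38, 9.31 and 8.44 log2 signal in NGMT and 8.90, 9.27 and 8.73 in GMT cells of set 2, below all the reprogrammed arrays of set 1 given above (log2 difference -3.26 ± 0.20, adjusted p = 1.61e-12). Il6 was at 6.68, 6.75 and 7.04 log2 signal in NGMT and 7.18, 7.28 and 6.66 in GMT cells of set 2 (-3.04 ± 0.18, adjusted p = 7.93e-13), and Hp differed by -3.01 ± 0.19 (adjusted p = 2.16e-12). Ptgs2 differed by -0.30 ± 0.05 and Ccl7 by -0.40 ± 0.11 on the log2 scale, small beside the differences of Saa3 and Il6. Csf1 (1.14 ± 0.06), Il11 (0.99 ± 0.06) and Il18 (0.90 ± 0.08) were higher in set 2. Il11 was above the array median only on the set 2 arrays of these groups, and so passed the filter through them. Mesothelial markers were lower in set 2, 10 of 10 tested with a median log2 difference of -1.97. Array set and any difference in culture cannot be told apart, and no 0F array was in set 2.

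**Figure D4:**
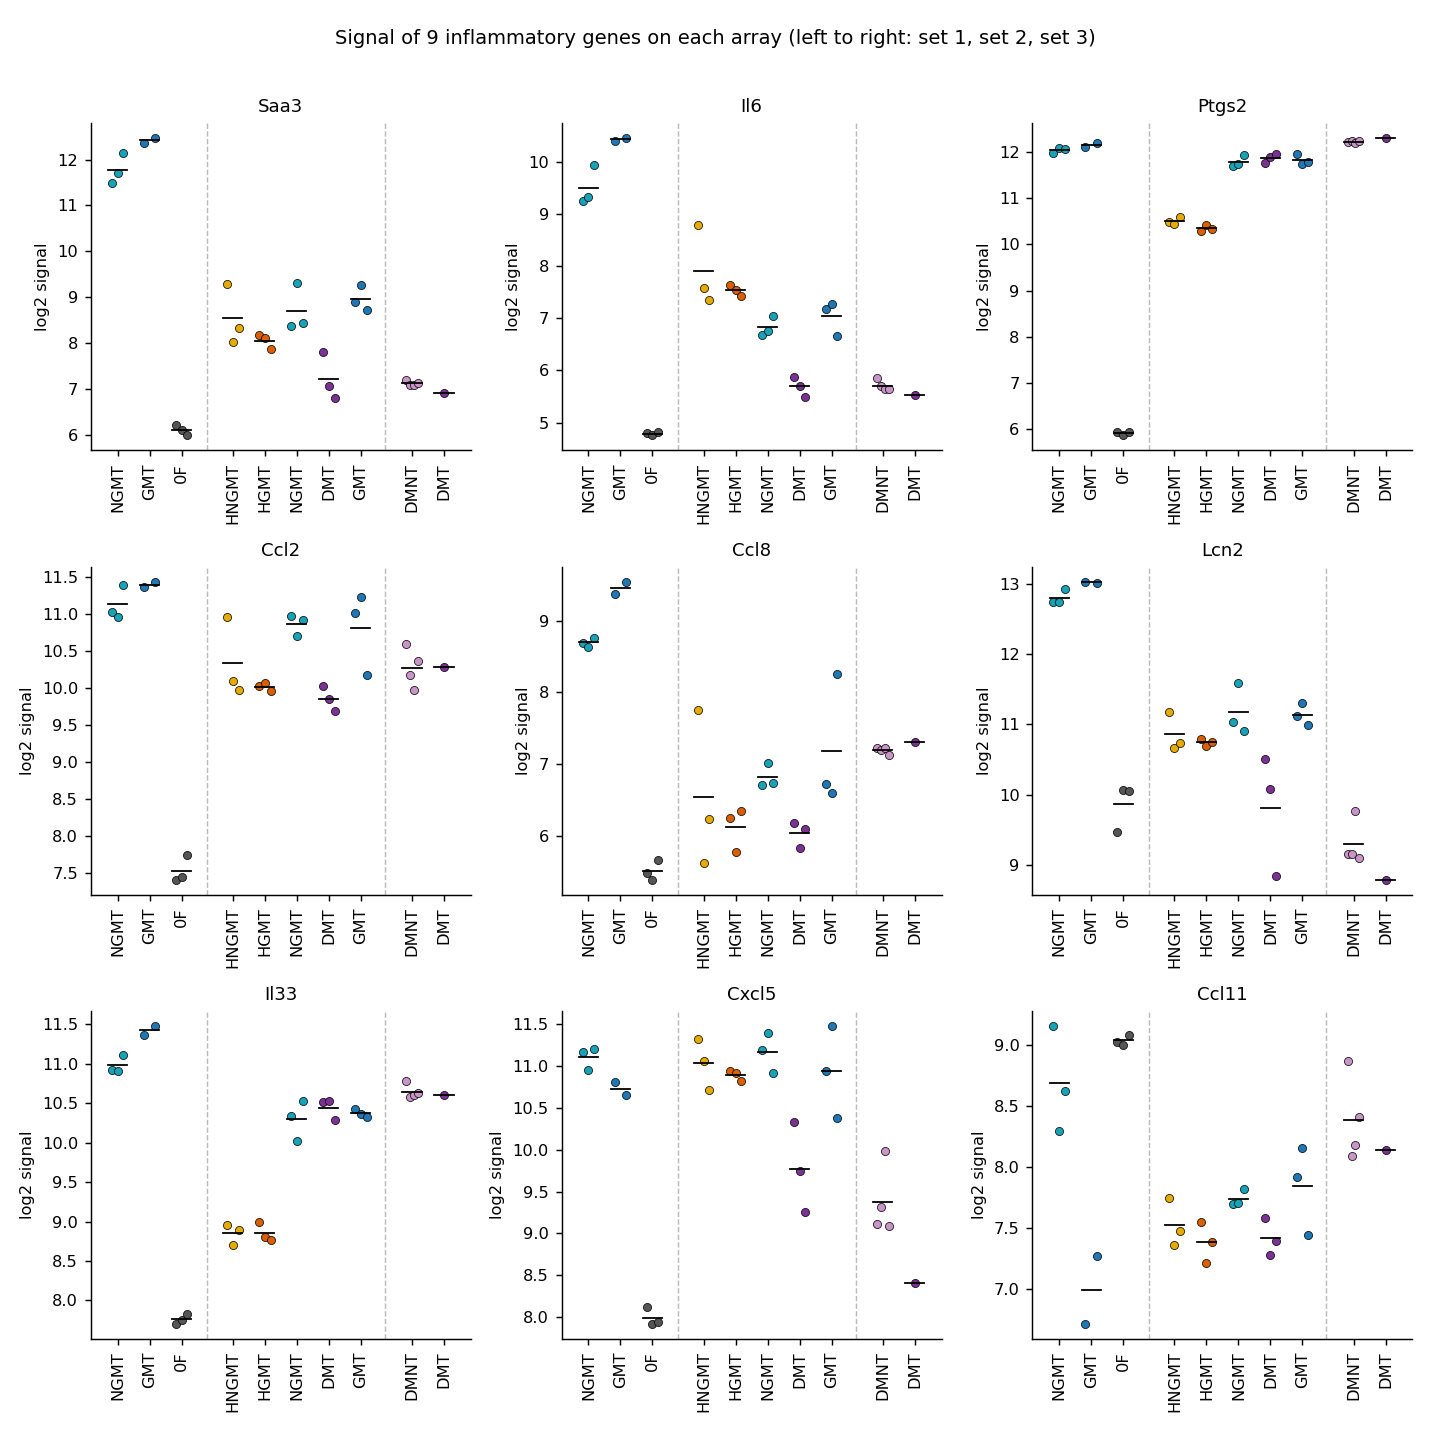
Log2 signal of 9 inflammatory genes on each of the 28 arrays, with groups from left to right within sets 1, 2 and 3 parted by dashed lines; points are arrays and lines are group means, and each panel has its own axis. In set 1 all genes but Ccl11 are lowest in 0F MEFs; in set 2 Ptgs2 and Il33 are lower on the HNGMT and HGMT arrays, and Saa3, Il6, Lcn2 and Cxcl5 are lowest on DMT arrays.

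Adding Hand2 to GMT lowered Ptgs2 and Il33 most, together with monocyte chemokines and Saa3, and raised Cxcl12. In HGMT against GMT cells of set 2, 10 members were lower and 1 higher, where 23.9% of all tested genes were called, 12.7% as lower and 11.2% as higher. The median log2 difference was -0.15 over the members and -0.01 over all tested genes. Ptgs2 had log2 signals of 10.28, 10.42 and 10.34 in HGMT cells, against 11.95, 11.73 and 11.78 in GMT cells. The groups did not overlap and the log2 difference was -1.47 ± 0.06 (adjusted p = 3.9e-14, 2.77-fold lower). Il33 had log2 signals of 9.0, 8.81 and 8.77 in HGMT cells, against 10.42, 10.37 and 10.33 in GMT cells. It was lower by -1.51 ± 0.10 on the log2 scale (adjusted p = 4.03e-11, 2.86-fold). Saa3 had log2 signals of 8.18, 8.10 and 7.88 in HGMT cells, against 8.90, 9.27 and 8.73 in GMT cells (log2 difference -0.91 ± 0.27, adjusted p = 0.0151).

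Of the CC chemokines, Ccl2 (log2 difference -0.79 ± 0.23, adjusted p = 0.012), Ccl7 (-0.66 ± 0.15, adjusted p = 0.00212) and Ccl8 (-1.06 ± 0.37, adjusted p = 0.0381) were lower in HGMT cells. Ccl8 had log2 signals of 6.25, 5.78 and 6.35 in HGMT cells, against 6.72, 6.59 and 8.26 in GMT cells. All of these but 8.26 lay below the lowest array median of set 2, 6.86, and may be background. GMT replicate 5 stood far above the other arrays, and without it the log2 difference was -0.53 and not called (adjusted p = 0.28). The call of Ccl8 was also lost without any HGMT replicate in turn (the adjusted p lay between 0.055 and 0.15). A limma fit of set 2 alone did not call it either (adjusted p = 0.143). Also lower were Cxcl14 (-0.80 ± 0.12), Il11 (-0.53 ± 0.08), Lif (-0.48 ± 0.09) and Nfkbia (-0.26 ± 0.07), with adjusted p of at most 0.00861. Il11 lay above the array median only on the 6 GMT and NGMT arrays of set 2, and passed the filter through them. Its calls as lower against these groups, here and in the counts of members, carry this limit. Cxcl12 had log2 signals of 11.75, 11.84 and 11.83 in HGMT cells, against 10.97, 11.30 and 11.31 in GMT cells, and was higher by 0.61 ± 0.12 (adjusted p = 0.00036). Il6 did not pass the test, at a log2 difference of 0.50 (95% interval with its lower end just below 0 and its upper end at 0.99, adjusted p = 0.149). Of the 10 members lower in HGMT cells, 9 were among the 18 that were higher in GMT than in 0F cells of set 1, which is 9 of 10 and 9 of 18. Of all tested genes lower in HGMT cells 63.6% were higher in GMT than in 0F cells, and 18 of the 27 tested members were. The exception was Il11. Cxcl2, below the filter, was lower by -0.41 ± 0.12 in the fit without it (adjusted p = 0.026).

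With NKX2.5 present, Ptgs2 and Il33 again had the largest decreases with Hand2. In HNGMT against NGMT cells of set 2, 7 members were lower and 1 higher, where 28.5% of all tested genes were called, 20.9% as lower and 7.67% as higher. Ptgs2 had log2 signals of 10.48, 10.45 and 10.60 in HNGMT cells, against 11.68, 11.74 and 11.93 in NGMT cells (log2 difference -1.27 ± 0.06, adjusted p = 6.25e-13). Il33 had log2 signals of 8.95, 8.70 and 8.90 in HNGMT cells, against 10.34, 10.03 and 10.53 in NGMT cells (-1.45 ± 0.10, adjusted p = 1.36e-10). Neither gene overlapped between the groups. Cxcl14 (-0.88 ± 0.12), Il11 (-0.71 ± 0.08) and Lif (-0.57 ± 0.09) were lower as well, with adjusted p of at most 4.03e-05, and Cxcl16 and Csf1 by -0.26 ± 0.09 and -0.23 ± 0.08. The limit given above for Il11 holds here and for its place among the members lower with Hand2 in both comparisons. These 2 Hand2 comparisons share no array, and 5 members were lower in both, 5 of the 10 in HGMT and 5 of the 7 in HNGMT cells. Of all tested genes 1178 were lower in both, 75.9% of those lower in HGMT and 46.2% of those lower in HNGMT cells. The interaction of NKX2.5 and Hand2 called no member and 0.0% of all tested genes in limma, with 1 member at an unadjusted p under 0.05, Ptgs2 (0.19, 95% interval 0.01 to 0.38).

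Il6 was higher in HNGMT than in NGMT cells. Its log2 signals were 8.80, 7.59 and 7.36 in HNGMT cells, against 6.68, 6.75 and 7.04 in NGMT cells (log2 difference 1.09 ± 0.24, adjusted p = 0.00173). In NGMT cells Il6 lay above the array median on 1 of 3 arrays. The groups did not overlap, and without HNGMT replicate 1 the difference was 0.65 (adjusted p = 0.008). That array was also the highest of its group for Ccl8 (7.76, against 5.62 and 6.23 in the other HNGMT arrays), Ccl2 (10.96, against 10.10 and 9.98) and Ccl9 (8.09, against 7.28 and 6.70). Macrophage markers averaged 6.95, 6.70 and 6.15 log2 signal on the HNGMT arrays, against 6.32, 6.00 and 6.09 on NGMT arrays, and 6 of 12 were called higher, led by Lyz2 (2.54 ± 0.55, adjusted p = 0.00144). Their part in Il6 and the chemokines was not tested. Between HNGMT and HGMT cells no member was called in limma, where 0.491% of all tested genes were called, and 6 members had an unadjusted p under 0.05. Without HNGMT replicate 3, which had the lowest macrophage mean, 6 members were called, and without replicate 2, 2 were called.

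The wider lists held calls in both directions with Hand2, to be read beside the 11.2% of all tested genes called higher and the 12.7% called lower in HGMT against GMT cells. Of 24 NF-kB genes 2 were higher and 4 lower, in all near the 23.9% of all tested genes called, with Tnip3 at a log2 difference of -1.04 ± 0.17 (adjusted p = 5.25e-05). Of the prostaglandin genes 3 of 16 were higher and 3 lower, and Pla2g4a, which supplies the substrate of Ptgs2, was lower by -0.92 ± 0.07 (adjusted p = 8.22e-10). The other chemokines gave 3 lower of 12, with Ccl5 at -1.50 ± 0.15 (adjusted p = 3.94e-08). IL-1 family signalling gave 4 lower and none higher of 11, and IL-6 family signalling 1 higher and 3 lower of 13. In HNGMT against NGMT cells 8 of 24 NF-kB genes were lower and none higher, and 4 of 9 further acute-phase genes were higher and none lower. There 20.9% of all tested genes were called lower and 7.67% higher. Of 12 further cytokines and receptors 2 were higher and 4 lower in HGMT than in GMT cells, led by Tslp at -2.09 ± 0.20 (adjusted p = 4.16e-08). Of further acute-phase genes 4 of 9 were higher and none lower in HGMT cells, while Saa3 was lower, with Itih4 at 1.82 ± 0.17 (adjusted p = 1.57e-08) and Orm1 at 1.00 ± 0.21 (adjusted p = 0.00114). All 9 adipocyte markers were higher in HGMT than in GMT cells, averaging 8.34 to 8.68 log2 signal on HGMT arrays against 7.52 to 7.78 on GMT arrays, and their part in these acute-phase genes was not tested. Of 10 mesothelial markers 5 were higher and 2 lower in HGMT than in GMT cells. In HNGMT against NGMT cells 5 of the 10 were higher and 3 lower, while most called members were lower in both comparisons. The part of these markers was not tested.

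With MYOCD in place of GATA4, Saa3, Lcn2, Il6 and chemokine genes were lower, while Hp, Ptgs2 and Il33 did not pass the test. By role, 2 of 3 acute-phase genes, 2 of 4 genes of the IL-6 family and other interleukins, 4 of 6 CXC and 3 of 6 CC chemokines were lower, and 1 CXC chemokine, Cxcl15, was higher. In DMT against GMT cells of set 2, 15 members were lower and 1 higher, where 17.3% of all tested genes were called, 8.15% as lower and 9.11% as higher. The median log2 difference was -0.42 over the members and 0.01 over all tested genes. This comparison uses the same 3 GMT arrays as that of HGMT with GMT. Saa3 had log2 signals of 7.80, 7.05 and 6.80 in DMT cells, against 8.90, 9.27 and 8.73 in GMT cells. It did not overlap between the groups and was lower by -1.75 ± 0.27 on the log2 scale (adjusted p = 3.04e-05). Il6 had log2 signals of 5.88, 5.70 and 5.50 in DMT cells, against 7.18, 7.28 and 6.66 in GMT cells (log2 difference -1.35 ± 0.24, adjusted p = 0.000192). DMT arrays were the lowest for Il6 of all arrays in set 2. All DMT arrays lay below the array median for Il6, so these signals may be background and the difference from GMT a lower bound.

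The neutrophil-attracting chemokines and Lcn2 were also lower in DMT cells. Cxcl5 had log2 signals of 10.33, 9.74 and 9.25 in DMT cells, against 10.94, 11.48 and 10.38 in GMT cells (log2 difference -1.16 ± 0.25, adjusted p = 0.0015). Cxcl1 was lower by -0.86 ± 0.17 (adjusted p = 0.000495). Lcn2 had log2 signals of 10.50, 10.08 and 8.85 in DMT cells, against 11.11, 11.30 and 10.99 in GMT cells (-1.33 ± 0.27, adjusted p = 0.000945). Replicate 3 was the lowest DMT array for these genes except Cxcl1, and without it the Lcn2 difference was -0.85 (adjusted p = 0.007). Il1rn had log2 signals of 9.91, 8.91 and 8.50 in DMT cells, against 10.17, 10.59 and 10.15 in GMT cells (-1.20 ± 0.27, adjusted p = 0.00253). Among monocyte chemokines Ccl2 (-0.95 ± 0.23, adjusted p = 0.00345) and Ccl7 (-0.84 ± 0.15, adjusted p = 0.000212) were lower. Ccl8 had log2 signals of 6.18, 5.83 and 6.10 in DMT cells, against 6.72, 6.59 and 8.26 in GMT cells (-1.15 ± 0.37, adjusted p = 0.0319), and without GMT replicate 5 the difference was -0.61 and not called (adjusted p = 0.25). Leaving out any DMT replicate also ended its call (adjusted p between 0.052 and 0.12), as did a limma fit of set 2 alone (adjusted p = 0.145). Of these Ccl8 signals all but 8.26 lay below the array medians and may be background.

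Decreases of 0.25 to 0.56 log2 units were called for Cxcl14, Cxcl16, Il11, Nfkbia, Ptges and Tnfaip3. For Tnfaip3 the DMT arrays (6.64, 6.54 and 6.76) lay below the lowest array median of set 2, 6.86, and may be background. For Il11, which passed the filter only through GMT and NGMT arrays of set 2, the limit given above holds here too. In the fit without the filter Cxcl2 was lower by -0.47 ± 0.12 (adjusted p = 0.0118). Hp had a log2 difference of 0.03 (95% interval -0.49 to 0.56). Cxcl15 was the member that rose, with log2 signals of 7.93, 7.05 and 7.28 in DMT cells, against 6.66, 6.96 and 6.40 in GMT cells (log2 difference 0.75 ± 0.22, adjusted p = 0.0203). The GMT signals of 6.66 and 6.40 lay below the lowest array median of set 2 and may be background. Ptgs2 had log2 signals of 11.76, 11.89 and 11.95 in DMT cells, against 11.95, 11.73 and 11.78 in GMT cells. The groups overlapped, and the interval of the log2 difference was -0.08 to 0.18. Il33 had log2 signals of 10.51, 10.53 and 10.28 in DMT cells, against 10.42, 10.37 and 10.33 in GMT cells (95% interval -0.14 to 0.27). For both genes the HGMT minus GMT estimate lies outside these intervals.

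HGMT and DMT cells were then compared directly, a comparison added after the values were seen. Ptgs2 (log2 difference -1.52 ± 0.06, adjusted p = 5.96e-15) and Il33 (-1.58 ± 0.10, adjusted p = 6.59e-12) were lower in HGMT cells. Il6 was higher in HGMT cells, with log2 signals of 7.64, 7.55 and 7.43 in HGMT against 5.88, 5.70 and 5.50 in DMT cells (1.84 ± 0.24, adjusted p = 1.42e-06). Its DMT signals lay below the array medians and may be background, so this difference may be a lower bound. Il1rn (1.42 ± 0.27), Cxcl5 (1.12 ± 0.25), Lcn2 (0.93 ± 0.27) and Saa3 (0.84 ± 0.27) were higher in HGMT cells too, with adjusted p of at most 0.017. In all, 8 members were higher and 4 lower, where 36.6% of all tested genes were called, 15.9% as higher and 20.7% as lower. Ccl2 (0.16, 95% interval -0.31 to 0.63) and Ccl8 (0.09, -0.68 to 0.85) did not pass the test. The plot of changes in set 2 puts the 3 factor changes beside each other.

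**Figure D5:**
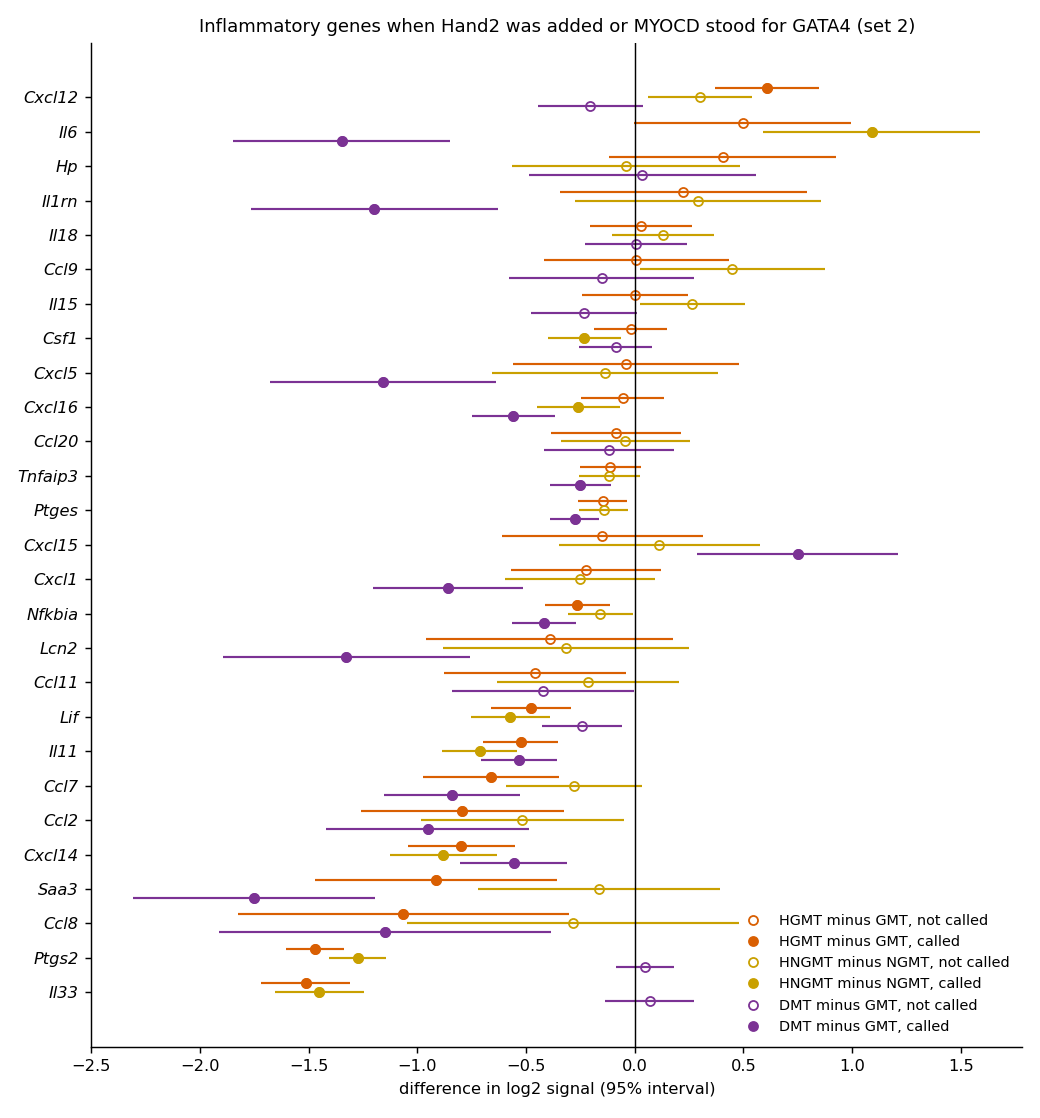
Differences in log2 signal of 27 tested inflammatory genes in set 2, for HGMT minus GMT (orange), HNGMT minus NGMT (yellow) and DMT minus GMT (purple), with 3 arrays in each group. Points are limma estimates, bars are 95% intervals and filled points have an adjusted p under 0.05; Ptgs2 and Il33 lie at the bottom for both Hand2 comparisons and near 0 for DMT, and Il6 lies at -1.35 for DMT, 1.09 for HNGMT and 0.50, not called, for HGMT.

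In the wider lists most calls in DMT against GMT cells were decreases, where 9.11% of all tested genes were called higher and 8.15% lower. All 9 called genes of the 13 of IL-6 family signalling were lower, among them Socs3 (log2 difference -0.53 ± 0.12, adjusted p = 0.00196) and Lifr (-0.53 ± 0.11, adjusted p = 0.00164). Of 24 NF-kB genes 1 was higher and 7 lower, led by Vcam1 (-0.63 ± 0.07, adjusted p = 2.62e-07) and Icam1 (-0.50 ± 0.06, adjusted p = 2.8e-06), both leukocyte adhesion molecules. The inflammasome protease Casp1 was lower by -1.29 ± 0.15 (adjusted p = 4.62e-07) among 5 lower and 1 higher of 11 IL-1 family genes. Other chemokines gave 5 lower of 12, led by Ccl5 (-1.37 ± 0.15, adjusted p = 1.5e-07), and further acute-phase genes 5 lower of 9, led by Lbp (-1.08 ± 0.15, adjusted p = 1.03e-05). Of 9 adipocyte markers 5 were lower and of 10 mesothelial markers 5 were lower and 1 higher in DMT than in GMT cells, with array means of 6.89 to 7.08 on DMT against 7.52 to 7.78 on GMT arrays for adipocyte and 6.74 to 6.84 against 7.13 to 7.32 for mesothelial markers. Their part was not tested. Macrophage marker means were 5.98 to 6.01 on DMT and 6.01 to 6.10 on GMT arrays.

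NKX2.5 added to DMT was measured in set 3, with 4 DMNT arrays and 1 DMT array, which limma takes to vary like the other groups. No member was called, where 0.0655% of all tested genes were called, and 3 members had an unadjusted p under 0.05. These were Cxcl5 (log2 difference 0.97, 95% interval 0.26 to 1.68), Hp (0.79, 0.07 to 1.5) and Cxcl14 (0.52, 0.18 to 0.86). Cxcl5 had log2 signals of 9.12, 9.32, 9.99 and 9.09 in DMNT cells, against 8.40 in the DMT array. Il6 was at 5.85, 5.70, 5.64 and 5.64 in DMNT cells and 5.53 in the DMT array, and Ptgs2 at 12.21, 12.24, 12.19 and 12.24 in DMNT cells and 12.31 in the DMT array. The scale of set 3 differs from those of the other sets, so these signals are set against none from there. Many values recur exactly between arrays of set 3, 18% to 28.8% for each pair, against at most 5.93% in set 1 and 1.81% in set 2. Nfkbia was identical on 5 of 5 arrays and Lif on 4 of 5, and the cause was not tested.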

How the data were processed

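Biotin-labelled total RNA of 28 cultures was hybridized to 1-colour arrays, per the labels' protocols. The authors deposited log2 signals of 35556 probe sets, from 3.757941 to 14.46866. Of tools, the submitters' processing notes give MAS5 without a version, and how the arrays were scaled is not stated there. Every column was read (0 not used). Such signals carry no read depth, and the number of arrays limits the precision. Groups follow the sample titles. The labels name no array sets: the 3 sets were found from the distribution of each array's values, with a largest mean distance of 0.0486 log2 units within and a smallest of 0.135 between sets.

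The platform annotation gives 1 symbol for 21789 probe sets, several for 1621 and none for 12146, and those with 1 symbol named 19938 genes. A gene was tested if it lay above the array median on at least 3 arrays. A model with 1 mean for each group in each set (18 residual degrees of freedom) was fitted to all 12211 tested genes with limma 3.58.1 (lmFit, eBayes with trend) in R 4.3.3, and p-values were adjusted over them by Benjamini-Hochberg within each comparison, with calls under 0.05. On simulated data with 12211 genes, this fit recovered 75% (DMNT against DMT) to 96% (DMT against GMT) of genes changed by 0.5 log2 units and at least 97% of those changed by 1. The simulation used independent noise with 1 spread per gene over all sets, a fixed number of changed genes and no repeated values. Recovery depends on how many genes change, so these shares do not give the power of comparisons with few calls, such as DMNT against DMT.

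All members are accounted for, and every array is printed for members called with at least 1 log2 unit in a comparison. From each pathway or marker list at most 3 called genes of largest difference were eligible to be named. The members and lists were chosen with earlier results of these data known, and so were the tests. Alternatives were additive group and set terms, quantile normalization, removal of array medians, no filter and another filter, the mean of all probe sets, the compared sets alone, eBayes without trend, replicate blocks and leaving out each array. Promoters were matched by symbol to RefSeq tables on GRCm38.p6, and gene order comes from a RefSeq gene table.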

Additional observations from a re-analysis of the deposited data

Results flagged for a closer look

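In set 3, 9 of 33 members had a DMNT array that stood apart from the other 3 by the 95% limit of Dixon's test for 4 samples. Chance alone marks about 1 in 20 groups of untied values. For Il1a, Il1b, Lif, Cxcl16 and Ccl9 the other 3 values were identical. Any gap, however small, is then flagged, and that rate does not apply. Replicate 1 was lowest for Il1a (log2 signal 5.23), Lif (8.84) and Ccl9 (7.18), and highest for Cxcl16 (6.59) and Ccl7 (11.43). Replicate 2 was highest for Il1b (6.34). Replicate 3 was highest for Il18 (7.99), Cxcl15 (7.22) and Lcn2 (9.76). The largest gap was that of Lcn2, whose other DMNT arrays were at 9.10, 9.16 and 9.16, and the smallest that of Ccl9, whose other 3 arrays also rounded to 7.18. Exact repeats of values between arrays are common in set 3, as given above, and their part in the other flags was not tested.

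The difference between NGMT and GMT cells itself differed between sets 1 and 2 for Ccl11 (set 1 minus set 2, log2 difference 1.79) and Cxcl16 (-1.03) by an interaction term in limma. Il1a, which was below the filter, had a difference of -1.55 in the fit without it (adjusted p = 0.000265).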

How the results depend on the processing

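Of 64 differences of at least 1 log2 unit, 60 were called under every alternative and none turned in direction. The exceptions were Ccl8 in HGMT and in DMT against GMT, Il1rn in NGMT against GMT of set 1, and Ccl11 there with additive group and set terms (0.70, adjusted p = 0.17). Moved counts are listed first for fits with no single array left out. On leaving out arrays, counts of NGMT against GMT in set 1 and of HNGMT against HGMT moved as well, as the ranges after that list show. Counts of called members that moved by over 1.5 times were those of NGMT against GMT in set 1 (8), with 1 under additive terms and 13 with the compared sets alone, NGMT against GMT in set 2 (0), with 1 under additive terms, and DMNT against DMT (0), with 1 from the compared sets alone. Leaving out 1 array at a time gave 21 to 22 called members for GMT against 0F, 21 to 23 for NGMT against 0F, 2 to 9 for NGMT against GMT in set 1 (2 without GMT replicate 2, 4 without NGMT replicate 1 or 2, 5 without GMT replicate 1), 0 in set 2, 9 to 13 for HGMT against GMT, 6 to 10 for HNGMT against NGMT, 0 to 6 for HNGMT against HGMT, 14 to 16 for DMT against GMT, 10 to 13 for HGMT against DMT, 0 for DMNT against DMT and for the interaction of NKX2.5 and Hand2, 2 for the difference between sets and 21 to 23 for set 2 against set 1. Deviations of samples with the same title number had correlations of -0.14 to 0.41 in set 1 and -0.26 to 0.30 in set 2. For different title numbers these were -0.41 to 0.31 and -0.40 to 0.41. By description number in set 2 they were -0.26 to 0.37 for the same and -0.40 to 0.41 for different numbers. With so few arrays in a group, such correlations can neither show nor exclude a pairing. With the replicate number as a block, 23 members were called for GMT against 0F, 23 for NGMT against 0F, 8 and 0 for NGMT against GMT in sets 1 and 2, 0 for HNGMT against HGMT and 2 for the difference between sets. With the numbers of the description label as a block, 10 were called for HGMT against GMT, 7 for HNGMT against NGMT and 14 for DMT against GMT. The causes were not tested.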
